A study of Homo sapiens with 6 samples.

Results

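The genes described here encode the proteins that license, fire and copy from DNA replication origins and that keep the replication fork stable. They are 48 genes, found by symbol from a list drawn up with earlier results of these data known, although no measured value enters the rule, out of the 17452 genes listed in each deposited file. All 48 were found, each once, and all 48 were among the 11560 genes tested, those that reached 1 FPKM (fragments per kilobase of transcript, scaled to the mapped fragments) in 3 libraries or more. The data are RNA sequencing of 6 libraries from MDA-MB-231 cells, an established human line of triple-negative breast cancer: 3 libraries of cells given siRNA against PHF20L1 (siPHF20L1) and 3 of cells given a control siRNA (siControl). Both groups are the same line in L-15 medium with serum. The labels name 2 lipid reagents for the transfection without saying which library had which, and give no siRNA sequence or time of harvest. They also do not say whether the libraries of a group are separate cultures, so the p-values cover the spread between libraries only, which may be technical. The series asks which transcripts depend on PHF20L1, a nuclear protein that binds methylated lysines.

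Replication starts at origins marked by the origin recognition complex. In G1 phase, CDC6 and CDT1 load the MCM2-7 helicase there, and geminin (GMNN) blocks reloading later in the cycle. The kinase CDC7 with its activator DBF4 then fires origins, and CDC45 and the GINS complex join the helicase to unwind DNA. Polymerase alpha with primase begins each strand, polymerases epsilon and delta extend them on the sliding clamp PCNA, which the RFC clamp loader sets in place, and FEN1 and LIG1 finish the lagging strand. RPA covers exposed strands, while TIMELESS, TIPIN, CLSPN and WDHD1 couple the helicase to the polymerases and to checkpoint signals. Many of these genes are known targets of E2F transcription factors and are expressed most around the entry into S phase.

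The siRNA target was lower in every knockdown library: PHF20L1 (Entrez 51105) lay at 2.67, 2.31 and 2.74 FPKM in siPHF20L1 and at 15.75, 12.48 and 12.73 FPKM in siControl libraries. The steps of the low FPKM put the depth at 17200000 to 17500000 fragments per library, so that 1 fragment in a transcript of 1 kb was worth 0.0571 to 0.0581 FPKM. The lowest value of any replication gene, 2.99 FPKM, thus stood for about 51.4 fragments per kb. Markers known to be high in the line summed to 2466 to 2537 FPKM in siPHF20L1 and 3693 to 3871 FPKM in siControl libraries, and 4 of 6 were lower. The largest falls among them were those of AXL, at 255 ± 5.25 FPKM in siPHF20L1 and 499 ± 9.23 FPKM in siControl libraries (SD, n = 3 each), LGALS1, at 576 ± 52.6 and 976 ± 109 FPKM, and VIM, at 1020 ± 7.89 and 1620 ± 17.4 FPKM. Of 6 epithelial and receptor genes listed as low in the line, EPCAM was higher at 4.31 ± 0.796 FPKM in siPHF20L1 against 2.20 ± 0.161 FPKM in siControl libraries. ERBB2 was higher at 30.8 ± 1.08 against 25.9 ± 0.0755 FPKM, and so was not low here. The other 4 were too low to test. The 6 summed to 36.36 to 36.78 FPKM in siPHF20L1 and 29.18 to 29.7 FPKM in siControl libraries, most of it from ERBB2. ESR1, which defines the line by its absence, was listed at 0 in all 6 libraries. Of 7 markers of other cell types found in the files, 4 stayed under 1 FPKM in every library. The 7 summed to 9.75 to 10.76 FPKM in siPHF20L1 and 8.15 to 8.45 FPKM in siControl libraries, with the collagen gene COL1A1 lower, at 4.67 ± 0.386 against 5.72 ± 0.441 FPKM, and the smooth muscle gene ACTA2 higher, at 3.99 ± 0.361 against 0.970 ± 0.131 FPKM. The part of these markers in the differences of the replication genes was not tested. The libraries numbered 1 of both groups stood apart from the others on the second principal component (10.2% of the variance, against 85.4% on the first, which separated the groups).

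The replication genes did not all move 1 way after the knockdown. Of the 48, 14 were higher and 17 lower in siPHF20L1 libraries (limma on log2(FPKM + 1), adjusted p under 0.05), and 17 did not pass. That is 64.6% called, against 58.6% of all genes tested. By direction, 29.2% were higher against a background of 34.0%, and 35.4% were lower against 24.7%. All 31 stayed under 2-fold on the log2(FPKM + 1) scale, which shrinks differences of low genes. In mean FPKM TIPIN rose 2.0-fold. With a pseudocount of 0.1 the log2 difference of TIPIN was 1.02 and that of LIG1 -0.96. As reported, 10 of the 48 (20.8%) passed with a log2 difference of at least 0.5, against 25.4% of all genes. Of the 10, 3 were higher (6.25%, against 16.2%) and 7 lower (14.6%, against 9.14%). The median log2 difference was -0.03 over the 48 and 0.05 over all genes tested, and the median size regardless of sign was 0.22 and 0.28. Groups did not overlap for 33 of the 48 genes, or 68.8%, against 63.7% of all genes. Knockdown libraries lay above in 15 and below in 18 of these, against 36.7% and 27.0% of all genes. Summed over all 48, the level was 1169 to 1203 FPKM in siPHF20L1 and 1233 to 1253 FPKM in siControl libraries.

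The split between directions depended on scaling. With median-ratio size factors 7 of the 48 were higher and 21 lower, and with quantile normalization 8 and 20, while scaling to equal FPKM sums gave 12 and 13. Higher genes were 45.2% of the called members as reported, 25.0% with median-ratio factors and 28.6% with quantile normalization, against 57.9%, 50.1% and 49.0% of the called genes overall. The median of the members less that of all genes was -0.08 as reported, -0.08 with median-ratio factors and -0.06 with quantile normalization. None of the 31 called genes changed its direction under any of the 15 alternatives, which refit the same libraries. All 31 had the same sign in replicate 1 as in replicates 2 and 3. For every called gene but MCM2 the groups did not overlap, which fixed that agreement in advance. Called or not, 47 of the 48 had the same sign in both. With the replicate number as a block, 42 of the 48 passed (limma), against 76.1% of all genes. The 11 genes added by the block were CDT1, CDC45, ORC4, PRIM1, POLD1, POLE2 and RFC4 among the higher and MCM5, MCM10, CDC6 and POLD2 among the lower ones (limma, adjusted p between 0.000146 and 0.0261).

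**Figure D1:**
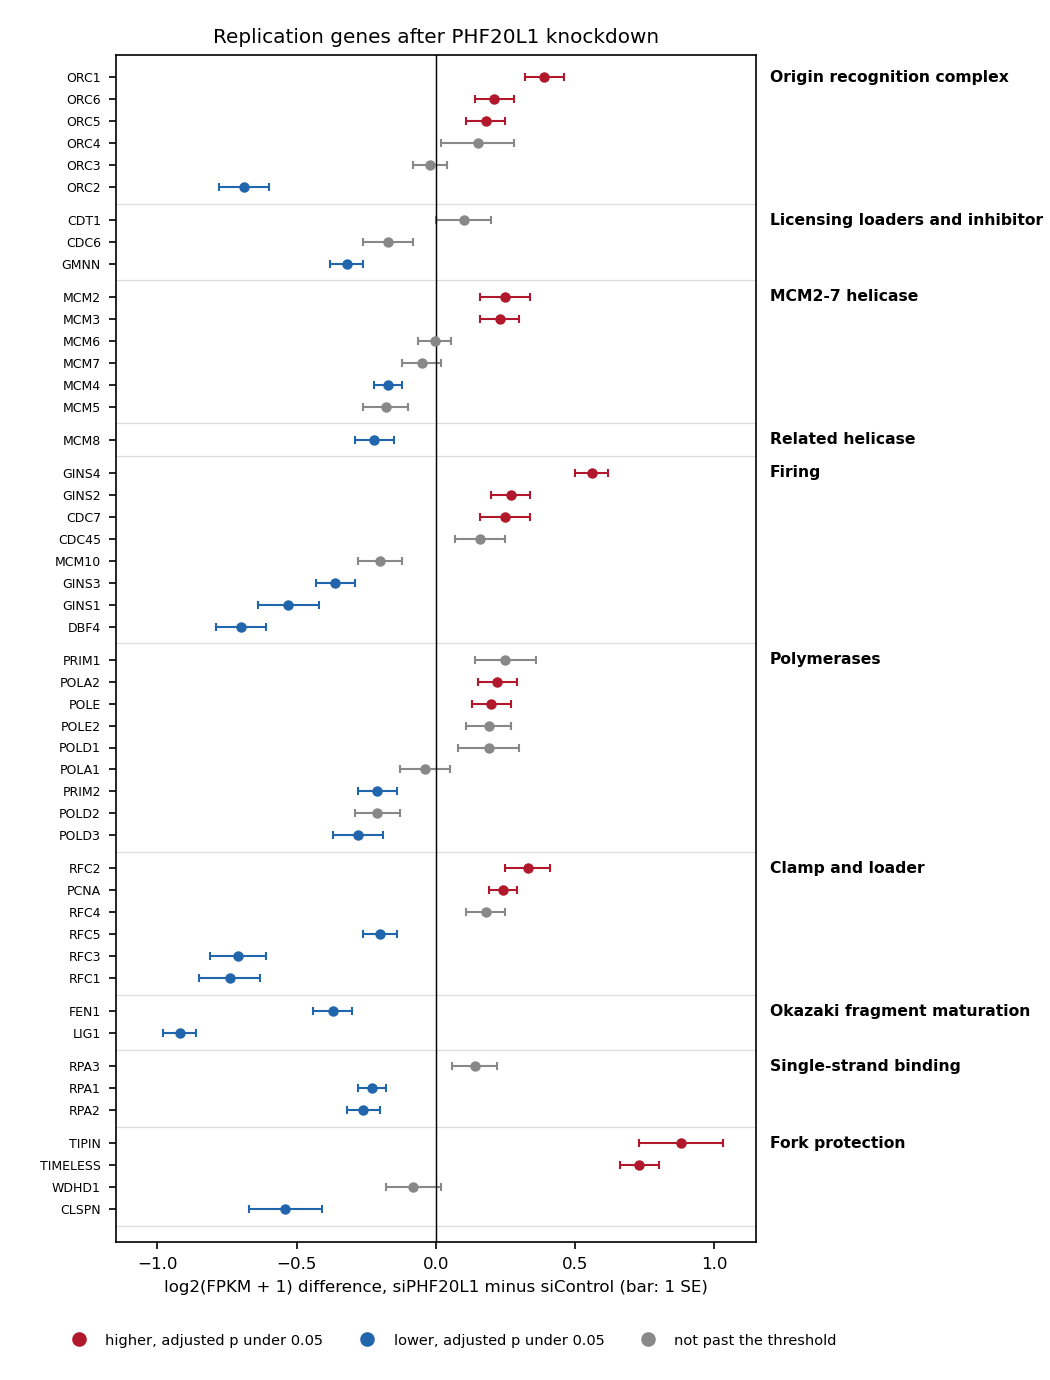
Log2 difference between siPHF20L1 and siControl libraries on the log2(FPKM + 1) scale (x axis) for the 48 replication genes, grouped by role (y axis), as limma estimates with 1 SE, red for the 14 higher, blue for the 17 lower and grey for the 17 that did not pass. Most groups hold points on either side of 0, and the extremes are TIPIN at 0.88 and LIG1 at -0.92.

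Some of the promoters searched for these genes, though not most, hold a word that E2F factors are known to bind. RefSeq promoter windows (GRCh38.p14, 250 bases before to 50 after the annotated start, 300 in all) were matched for 42 of the 48. Only the first listed window of each gene was used, for members and background alike. Some members have more, such as CDC45 and MCM7 with 3 each, and a word in a further window would have been missed. They were searched on both strands for the E2F words TTTGGCGC, TTTCCCGC, TTTGCCGC and TTTCGCGC, counting words that overlap each other separately. At least 1 word stood in 19 of the 42 windows, or 45.2%. Over genes tested the share was 5.57% (532 of 9543), and over all promoters of the same length, 1 per gene, 3.33% (908 of 27305). Among the higher genes 6 of 13 windows held a word, among the lower genes 6 of 14, and among those that did not pass 7 of 15. A match describes letters and not a bound site. The CCAAT box (CCAAT, both strands) was in 24 of the 42 windows, or 57.1%, against 35.7% of all promoters.

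Promoter windows of 4 genes are shown because they set E2F words, not all the same, beside different outcomes. LIG1 was the gene with the largest fall. GINS1 and GINS2 encode subunits of the same complex and moved in opposite directions, and MCM6 had the most words of the 42 and the smallest difference of the 48. Capitals mark the E2F words on either strand, and each line reads 5′ to 3′ on the gene's strand.
LIG1 (chr19:48170295-48170594, minus strand): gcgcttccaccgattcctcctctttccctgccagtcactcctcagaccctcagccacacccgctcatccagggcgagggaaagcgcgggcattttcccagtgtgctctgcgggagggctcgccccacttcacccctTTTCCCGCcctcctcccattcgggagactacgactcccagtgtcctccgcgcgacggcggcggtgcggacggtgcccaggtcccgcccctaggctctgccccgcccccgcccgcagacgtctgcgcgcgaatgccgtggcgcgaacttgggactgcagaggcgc
GINS1 (chr20:25407423-25407722, plus strand): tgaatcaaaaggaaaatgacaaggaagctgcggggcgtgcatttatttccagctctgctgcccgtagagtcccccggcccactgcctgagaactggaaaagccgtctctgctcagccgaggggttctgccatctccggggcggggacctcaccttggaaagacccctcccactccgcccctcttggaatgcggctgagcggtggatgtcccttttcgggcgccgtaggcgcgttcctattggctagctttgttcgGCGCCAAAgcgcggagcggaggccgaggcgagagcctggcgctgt
GINS2 (chr16:85688905-85689204, minus strand): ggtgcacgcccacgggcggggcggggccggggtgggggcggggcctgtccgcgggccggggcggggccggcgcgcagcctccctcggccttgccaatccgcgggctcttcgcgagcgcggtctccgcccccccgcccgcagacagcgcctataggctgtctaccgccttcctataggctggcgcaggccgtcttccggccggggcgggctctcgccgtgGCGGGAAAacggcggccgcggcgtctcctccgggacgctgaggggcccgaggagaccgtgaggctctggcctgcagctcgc
MCM6 (chr2:135876394-135876693, minus strand): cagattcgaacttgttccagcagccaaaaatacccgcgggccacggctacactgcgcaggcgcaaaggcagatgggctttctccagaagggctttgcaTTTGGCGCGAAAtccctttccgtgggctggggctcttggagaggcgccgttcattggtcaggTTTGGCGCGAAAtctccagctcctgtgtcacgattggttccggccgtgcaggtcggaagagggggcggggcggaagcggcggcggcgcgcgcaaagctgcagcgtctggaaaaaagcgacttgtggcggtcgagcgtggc
In MCM6 each run of capitals holds 2 words that overlap, 1 on each strand. LIG1 holds TTTCCCGC on the gene's own strand, GINS2 holds it on the other strand, and GINS1 holds TTTGGCGC on the other strand.

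**Figure D2:**
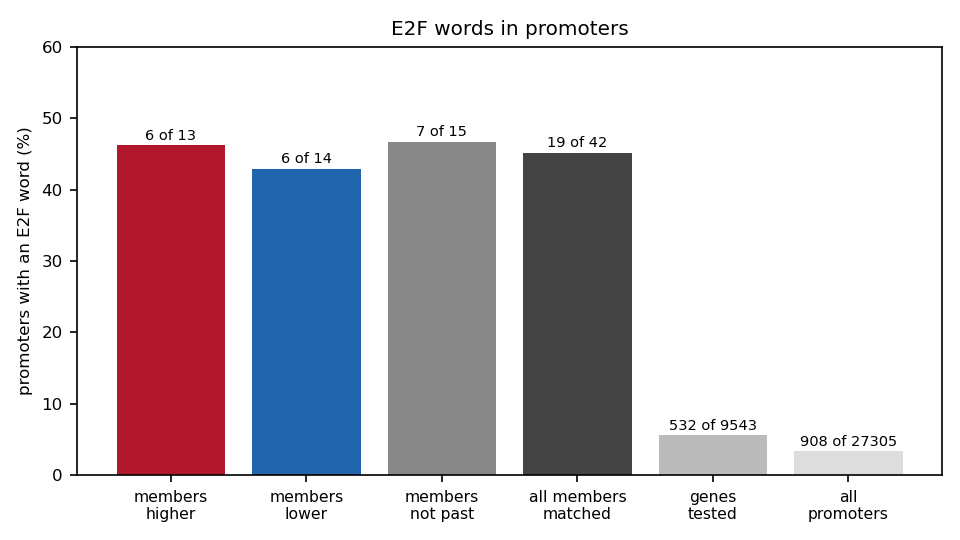
Share of promoter windows, the first listed of each gene, with at least 1 E2F word (y axis, percent), with the number of windows above each bar. The 3 classes of replication genes sit at 46.2%, 42.9% and 46.7%, against 5.57% of genes tested and 3.33% of all promoters.

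Among the genes of the origin recognition complex, the 6-subunit ATPase assembly that marks origins, 3 were higher, 1 was lower and 2 did not pass. ORC2 (Entrez 4999), a core subunit, stood at 10.46, 9.46 and 9.22 FPKM in siPHF20L1 libraries and at 18.21, 15.57 and 15.13 FPKM in siControl libraries. Every knockdown library lay below every control library, with a mean of 9.71 ± 0.658 FPKM against 16.3 ± 1.67 FPKM (log2 difference -0.69, SE 0.09, limma, adjusted p = 0.000184). ORC1 (Entrez 4998), the subunit whose protein is known to cycle in human cells, went the other way, with 9.33 to 10.1 FPKM in siPHF20L1 and 6.73 to 7.31 FPKM in siControl libraries (log2 difference 0.39, limma, adjusted p = 0.00116). The ratio of ORC1 to ORC2 was thus 0.966 to 1.02 within siPHF20L1 libraries and 0.370 to 0.478 within siControl libraries. Smaller rises were those of ORC5 at 11.5 ± 0.309 against 10.0 ± 0.520 FPKM and ORC6 at 21.5 ± 1.82 against 18.5 ± 0.521 FPKM. ORC3 was at 15.3 ± 0.630 FPKM in siPHF20L1 and 15.5 ± 0.601 FPKM in siControl libraries, and ORC4, the most abundant of the 6 per length, at 30.0 ± 4.55 and 26.9 ± 4.21 FPKM. ORC2 shares 256 exonic bases with an antisense gene, AC005037.1, and ORC4 shares 430 with ACVR2A and 157 with MBD5 on the opposite strand.

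Of the licensing factors, only the inhibitor passed. GMNN (Entrez 51053), which binds CDT1 and prevents relicensing, fell to 38.99 to 40.87 FPKM in siPHF20L1 libraries, against 48.17 to 52.36 FPKM in siControl libraries (log2 difference -0.32, SE 0.06, limma, adjusted p = 0.00109). Its partner CDT1, the MCM loader, was at 32.2 ± 3.78 in siPHF20L1 and 29.9 ± 2.79 FPKM in siControl libraries and did not pass (log2 difference 0.10, limma, adjusted p = 0.415). The difference between the responses of GMNN and CDT1 was not tested. Within a library the ratio of CDT1 to GMNN was 0.695, 0.890 and 0.833 in siPHF20L1 and 0.530, 0.597 and 0.660 in siControl, with no overlap. CDC6, the ATPase that loads MCM together with CDT1, was at 34.2 ± 3.41 in siPHF20L1 and 38.7 ± 3.46 FPKM in siControl libraries (log2 difference -0.17, limma, adjusted p = 0.128).

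The 6 genes of the MCM2-7 helicase, whose products form a ring in equal numbers, stayed within a narrow band of -0.18 to 0.25 on the log2 scale. MCM3 was at 64.3 ± 3.50 FPKM in siPHF20L1 and 54.8 ± 3.37 FPKM in siControl libraries (log2 difference 0.23, limma, adjusted p = 0.0170). MCM2, the subunit known as a main substrate of CDC7, was at 36.8 ± 3.88 and 30.6 ± 2.45 FPKM. MCM2 was the 1 called gene of the 48 whose groups overlapped, with a lowest knockdown value of 32.67 FPKM and a highest control value of 32.88 FPKM. MCM4 was lower, at 33.92 to 34.34 FPKM in siPHF20L1 and 37.58 to 40.27 FPKM in siControl libraries (log2 difference -0.17, limma, adjusted p = 0.0234). MCM5, MCM6 and MCM7 did not pass, with log2 differences of -0.18, -0.0035 and -0.05. The sum over the 6 genes was 257.0 to 286.6 FPKM in siPHF20L1 and 257.0 to 278.7 FPKM in siControl libraries, so the helicase as a whole overlapped between groups. In both groups MCM7 had the highest level per length and MCM6 the lowest, 74.7 ± 4.64 against 23.5 ± 0.542 FPKM in siPHF20L1 and 77.3 ± 5.09 against 23.6 ± 1.01 FPKM in siControl libraries. MCM8, a related helicase known for work with MCM9 in recombination and not part of the ring, was at 20.4 ± 1.23 in siPHF20L1 and 23.9 ± 1.19 FPKM in siControl libraries (log2 difference -0.22, limma, adjusted p = 0.0212).

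Among the 8 firing genes, 3 were higher, 3 lower and 2 did not pass, and partners within a complex differed in direction. DBF4 (Entrez 10926), the activator of the CDC7 kinase, lay at 9.37, 7.81 and 8.42 FPKM in siPHF20L1 libraries, against 15.00, 15.22 and 13.20 FPKM in siControl libraries. The highest knockdown value was well under the lowest control value (log2 difference -0.70, SE 0.09, limma, adjusted p = 0.000168). The kinase CDC7 itself was at 11.4 ± 0.841 in siPHF20L1 and 9.41 ± 1.06 FPKM in siControl libraries (log2 difference 0.25, limma, adjusted p = 0.0375). CDC7 transcripts outnumbered those of DBF4 per length in each knockdown library, with ratios of 1.31 to 1.38, while the control libraries gave 0.574 to 0.709. The other activating subunit gene, DBF4B, which is not among the 48 and was picked after its values were seen, was also lower, at 19.0 ± 1.08 against 26.6 ± 1.07 FPKM (log2 difference -0.47, limma, adjusted p = 0.000332). DBF4 shares 142 exonic bases with SLC25A40 on the opposite strand.

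The GINS complex, a tetramer that joins the helicase to unwind DNA, had 2 genes higher and 2 lower. GINS4 (Entrez 84296) stood at 11.31, 10.57 and 11.38 FPKM in siPHF20L1 libraries and at 7.01, 7.38 and 7.13 FPKM in siControl libraries, a 1.55-fold difference with tight replicates (log2 difference 0.56, SE 0.06, limma, adjusted p = 0.000116). GINS1 (Entrez 9837) stood at 7.70, 6.65 and 6.22 FPKM in siPHF20L1 libraries and at 11.55, 10.60 and 8.96 FPKM in siControl libraries. No knockdown library reached a control library (log2 difference -0.53, SE 0.11, limma, adjusted p = 0.00251). GINS2 was at 20.2 ± 1.01 against 16.7 ± 1.10 FPKM (log2 difference 0.27, limma, adjusted p = 0.00991) and GINS3 at 5.30 ± 0.205 against 7.11 ± 0.437 FPKM (log2 difference -0.36, limma, adjusted p = 0.00250), each with siPHF20L1 first. The ratio of GINS4 to GINS1 was 1.47, 1.59 and 1.83 in siPHF20L1 and 0.607, 0.696 and 0.796 in siControl libraries, so that the order of these subunits by level turned over. GINS4 shares 1159 exonic bases with the antisense gene AC009630.2 and GINS3 shares 558 with AC009118.2, and whether counting used strand is not given in the sources used here. CDC45, the helicase partner of GINS, was at 17.1 ± 0.554 in siPHF20L1 and 15.3 ± 1.90 FPKM in siControl libraries. MCM10, which helps the helicase to separate at firing, was at 8.49 ± 0.736 and 9.88 ± 0.733 FPKM. Neither passed (limma, adjusted p = 0.143 and 0.0696).

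**Figure D3:**
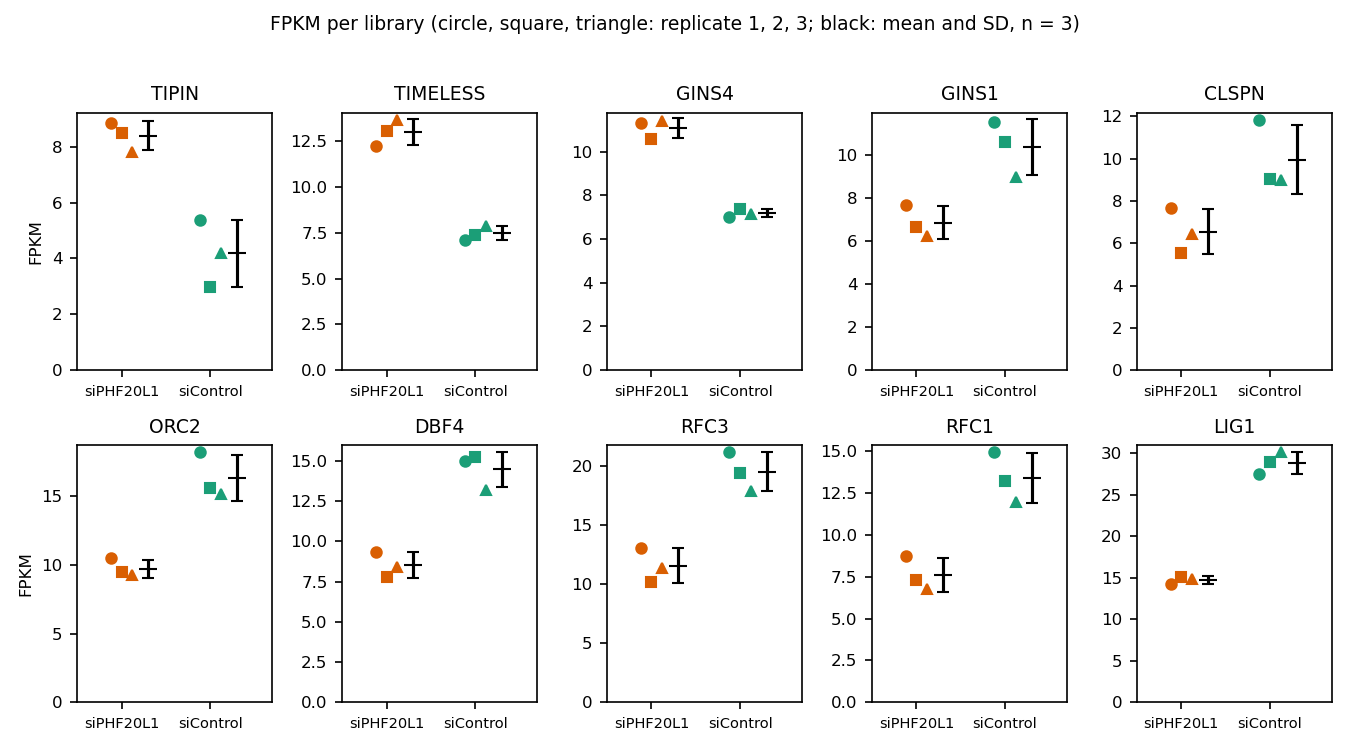
FPKM (y axis) of the 10 genes that passed with a log2 difference of at least 0.5, in each siPHF20L1 and siControl library (x axis), with the mean and SD of 3 libraries in black. No panel has an overlap between groups, and LIG1 at 14.25 to 15.13 FPKM against 27.53 to 30.14 FPKM is the widest gap on the log2(FPKM + 1) scale.

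The polymerase genes moved little, with 2 higher, 2 lower and 5 not past the threshold and a range of -0.28 to 0.25 on the log2 scale. In polymerase alpha and its primase, which lay down the primers, POLA2 was at 9.69 ± 0.179 in siPHF20L1 and 8.18 ± 0.404 FPKM in siControl libraries (log2 difference 0.22, limma, adjusted p = 0.0182) and PRIM2 at 12.2 ± 0.644 and 14.3 ± 0.909 FPKM (log2 difference -0.21, limma, adjusted p = 0.0293). The catalytic POLA1 was at 5.76 ± 0.450 and 5.94 ± 0.622 FPKM. The primase subunit PRIM1 was at 10.5 ± 1.54 in siPHF20L1 and 8.61 ± 0.741 FPKM in siControl libraries, with overlap. In polymerase epsilon, which copies the leading strand, the catalytic POLE was at 17.8 ± 1.35 and 15.4 ± 0.290 FPKM (log2 difference 0.20, limma, adjusted p = 0.0327). Its second subunit POLE2 lay at 13.75 to 14.20 FPKM in siPHF20L1 and 10.89 to 13.66 FPKM in siControl libraries and did not pass (limma, adjusted p = 0.0782). In polymerase delta, which copies the lagging strand, the accessory POLD3 was at 10.5 ± 0.814 in siPHF20L1 and 13.0 ± 1.57 FPKM in siControl libraries (log2 difference -0.28, limma, adjusted p = 0.0328). The catalytic POLD1, at 37.5 ± 4.81 and 32.7 ± 3.85 FPKM, and POLD2, at 71.6 ± 6.50 and 82.7 ± 6.25 FPKM, did not pass. POLA2 shares 2012 exonic bases with AP000944.2, annotated on the same strand.

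The clamp and its loader differed subunit by subunit. PCNA, the sliding clamp, was at 72.41 to 73.60 FPKM in siPHF20L1 and 59.32 to 64.75 FPKM in siControl libraries (log2 difference 0.24, SE 0.05, limma, adjusted p = 0.00508). RFC1 (Entrez 5981), the large subunit that defines the replicative loader, lay at 8.76, 7.30 and 6.78 FPKM in siPHF20L1 and at 14.92, 13.23 and 11.95 FPKM in siControl libraries. All 3 knockdown values were below all 3 controls (log2 difference -0.74, SE 0.11, limma, adjusted p = 0.000436). RFC3 (Entrez 5983), a small subunit, lay at 13.08, 10.14 and 11.37 FPKM in siPHF20L1 and at 21.17, 19.38 and 17.90 FPKM in siControl libraries, again without overlap (log2 difference -0.71, SE 0.10, limma, adjusted p = 0.000335). In contrast RFC2, another small subunit, was at 30.8 ± 2.75 in siPHF20L1 and 24.3 ± 1.69 FPKM in siControl libraries (log2 difference 0.33, limma, adjusted p = 0.00809). RFC5 was lower at 23.6 ± 0.295 against 27.2 ± 1.78 FPKM (log2 difference -0.20, limma, adjusted p = 0.0259). RFC4, at 38.70 to 45.23 FPKM in siPHF20L1 and 34.79 to 37.31 FPKM in siControl libraries, did not overlap but missed the threshold (limma, adjusted p = 0.0560). The ratio of RFC2 to RFC3 was 2.12 to 3.12 in siPHF20L1 and 1.06 to 1.42 in siControl libraries. PCNA, RFC3 and RFC5 have annotated pseudogenes named for them, 3 of them for PCNA, whose reads the authors' counting may have split.

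Both genes of Okazaki fragment maturation were lower. LIG1 (Entrez 3978), the ligase that seals the fragments, lay at 14.25, 15.13 and 14.90 FPKM in siPHF20L1 libraries and at 27.53, 28.88 and 30.14 FPKM in siControl libraries. This was the largest fall of the 48, 1.95-fold, with no overlap (log2 difference -0.92, SE 0.06, limma, adjusted p = 5.67e-06). FEN1, the nuclease that removes the flap before ligation, was at 58.48 to 67.34 FPKM in siPHF20L1 and 77.85 to 86.05 FPKM in siControl libraries (log2 difference -0.37, SE 0.07, limma, adjusted p = 0.00170). The ratio of PCNA to LIG1 was 4.84 to 5.16 in siPHF20L1 libraries and 2.05 to 2.24 in siControl libraries. LIG1 shares 179 exonic bases with the antisense gene AC011466.3 and FEN1 166 with TMEM258 on the opposite strand.

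In RPA, the trimer that coats single-stranded DNA, the genes of the larger subunits were lower and that of the smallest did not pass. RPA1, the main DNA-binding subunit, was at 76.6 ± 2.31 in siPHF20L1 and 90.1 ± 3.04 FPKM in siControl libraries (log2 difference -0.23, limma, adjusted p = 0.00571). RPA2, the subunit that checkpoint kinases phosphorylate, was at 25.7 ± 1.76 and 30.9 ± 0.831 FPKM (log2 difference -0.26, limma, adjusted p = 0.00836). RPA3 was at 9.18 ± 0.376 in siPHF20L1 and 8.29 ± 0.864 FPKM in siControl libraries (limma, adjusted p = 0.193). Per length, RPA1 exceeded RPA3 by 7.85 to 9.03 times in siPHF20L1 and by 9.94 to 12.4 times in siControl libraries, although their products act in equal numbers.

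The fork protection genes had the largest rises and 1 of the larger falls. TIPIN (Entrez 54962), which binds TIMELESS and RPA, lay at 8.86, 8.49 and 7.83 FPKM in siPHF20L1 libraries and at 5.38, 2.99 and 4.20 FPKM in siControl libraries. The control values spread far more than the knockdown values, yet the groups did not overlap (log2 difference 0.88, SE 0.15, limma, adjusted p = 0.00118). For replicate 1 alone the log2 difference was 0.63, and for replicates 2 and 3 it was 1.01. TIPIN shares 579 exonic bases with RPL9P25, a ribosomal protein pseudogene on the same strand. Its parent gene RPL9 was at 333 ± 13.3 in siPHF20L1 and 389 ± 17.3 FPKM in siControl libraries, and its part in the TIPIN values was not tested. TIMELESS (Entrez 8914), the partner of TIPIN at the fork, lay at 12.27, 13.09 and 13.68 FPKM in siPHF20L1 libraries and at 7.14, 7.38 and 7.89 FPKM in siControl libraries. Each knockdown library was above each control (1.74-fold, log2 difference 0.73, SE 0.07, limma, adjusted p = 4.46e-05).

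CLSPN (Entrez 63967), the claspin gene, whose product carries the checkpoint signal to the kinase CHEK1, went the opposite way to its partners. It lay at 7.65, 5.54 and 6.42 FPKM in siPHF20L1 libraries, against 11.84, 9.04 and 8.99 FPKM in siControl libraries. Within each group the library numbered 1 was the highest, and the groups did not overlap (log2 difference -0.54, SE 0.13, limma, adjusted p = 0.00680). The ratio of TIMELESS to CLSPN was 1.60 to 2.36 in siPHF20L1 and 0.603 to 0.878 in siControl libraries, while that of TIMELESS to TIPIN overlapped, at 1.38 to 1.75 and 1.33 to 2.47. WDHD1, which links the helicase to polymerase alpha, was at 8.68 ± 0.896 in siPHF20L1 and 9.23 ± 1.06 FPKM in siControl libraries (limma, adjusted p = 0.509).

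**Figure D4:**
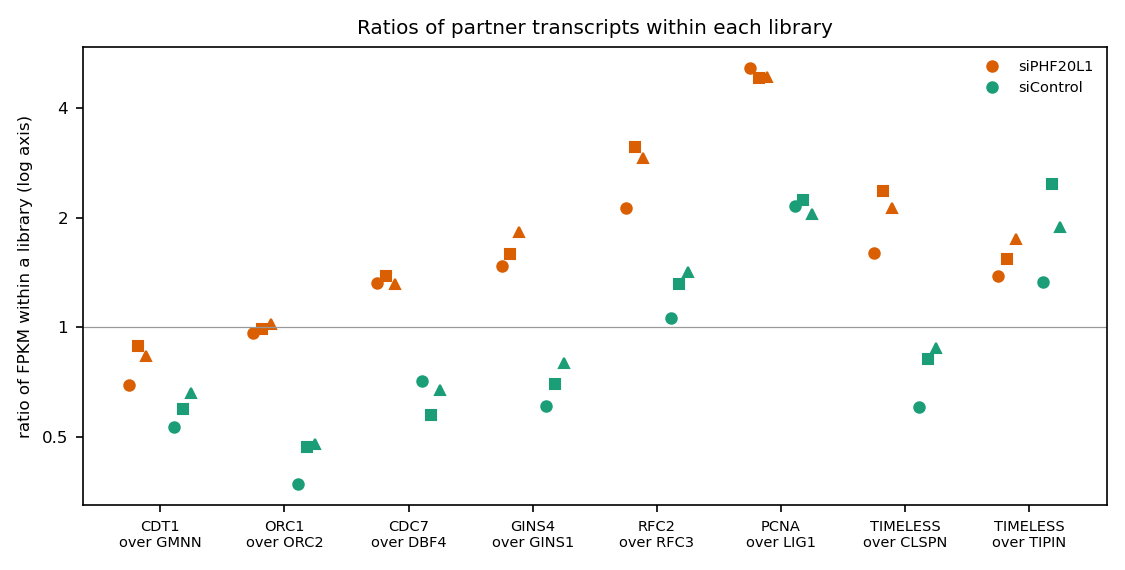
Ratio of FPKM between partner genes within each library (y axis, log scale), siPHF20L1 libraries in orange and siControl libraries in green, with a symbol per replicate number. The groups separate for 7 of the 8 ratios, among them GINS4 over GINS1 at 1.47 to 1.83 against 0.607 to 0.796, and overlap for TIMELESS over TIPIN. Apart from CDT1 over GMNN, each separated ratio sets a gene above in every knockdown library over a gene below in every one. Its separation was therefore fixed by the single genes.

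The pairs of genes set against each other as ratios were picked after their values were seen, and no ratio was tested. Where the groups of both genes lay apart in opposite directions, the ratio had to separate and adds nothing to the single genes.

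The calls were not equally firm. Of the 31 genes, 19 passed in all 15 alternatives, among them the 10 with a log2 difference of at least 0.5 and also GMNN, GINS2, GINS3, ORC1, PCNA, RFC2, FEN1, RPA1 and RPA2. The other 12 (CDC7, MCM2, MCM3, MCM4, MCM8, ORC5, ORC6, POLA2, POLD3, POLE, PRIM2 and RFC5) each lost the call when 1 library was left out. Without siPHF20L1 replicate 3 all 12 were lost, without siPHF20L1 replicate 2 it was 11, and without siPHF20L1 replicate 1 it was 2. Without siControl replicates 1, 2 and 3 the losses were 8, 9 and 6. All 12 also lost the call with at least 1 of the 3 other scalings. The losses were 7 with median-ratio size factors, 6 with quantile normalization and 7 with equal FPKM sums. Over the alternatives the adjusted p of these 12 genes reached between 0.0724 and 0.145 (limma). The count of higher genes was 7 without siPHF20L1 replicate 3, 8 without siControl replicate 2 and 9 without siPHF20L1 replicate 2, against 14 with all libraries. Calls in either direction were 19 without siPHF20L1 replicate 3, against 31.

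Other replication genes, 48 further factors of initiation, fork restart, chromatin assembly and checkpoint signalling, also went both ways. Of 47 tested, 8 were higher and 13 lower, 21 in all, with a median log2 difference of -0.09 (limma, background 34.0% and 24.7%). With the replicate block 16 were higher and 23 lower, and without siPHF20L1 replicate 3 the lower ones were 8. Counts over all genes moved the same way. They went from 3926 higher and 2851 lower to 4946 and 3846 with the block. Without siPHF20L1 replicate 3 the lower ones of all genes were 2324. The largest differences were those of TOP2A, the topoisomerase that untangles sister DNA, at 45.2 ± 5.71 in siPHF20L1 and 101 ± 11.4 FPKM in siControl libraries (log2 difference -1.14, limma, adjusted p = 3.31e-05), and of LRR1, a ubiquitin ligase subunit known to act in taking the helicase off DNA, at 12.6 ± 0.168 and 24.9 ± 1.47 FPKM (log2 difference -0.93, limma, adjusted p = 6.57e-06). RAD18, a ubiquitin ligase for PCNA, was at 7.85 ± 0.840 in siPHF20L1 and 14.2 ± 1.04 FPKM in siControl libraries (log2 difference -0.78, limma, adjusted p = 0.000103). Among those higher, the largest log2 differences were those of RNASEH2C (0.61), SMARCAL1 (0.55), ETAA1 (0.46) and POLD4 (0.41). Both large subunits of the chromatin assembly factor that binds PCNA also passed, with CHAF1A at 35.5 ± 0.770 against 28.6 ± 0.0819 FPKM and CHAF1B at 15.2 ± 0.890 against 11.3 ± 0.563 FPKM. Of other chromatin assembly genes in the list, SUPT16H was higher (0.23), while ASF1A, ASF1B and SSRP1 did not pass (0.009, -0.09 and -0.02). Genes of this list other than TOP2A, LRR1 and RAD18 were chosen for naming after their values were seen.

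Genes that mark the phases of the cycle moved beside them. Of 10 genes of S, G2 and M phase, 8 were lower and none higher (limma), against 24.7% and 34.0% of all genes tested, and their summed level was 634.1 to 644.1 FPKM in siPHF20L1 and 819.4 to 843.7 FPKM in siControl libraries. CDC20, AURKA and CCNB1, genes of mitotic entry and exit, had log2 differences of -0.61, -0.49 and -0.48. Of 10 regulators of the G1/S transition, 7 were lower and 2 higher (limma), against the same background of 24.7% and 34.0%. CCNE2, a cyclin of S phase entry, was at 2.82 ± 0.236 in siPHF20L1 and 12.5 ± 1.04 FPKM in siControl libraries (log2 difference -1.83, limma, adjusted p = 1.13e-06), and the inhibitor CDKN1A at 19.2 ± 0.978 and 50.1 ± 0.640 FPKM (log2 difference -1.34). E2F1, a transcription factor of replication genes, was at 32.4 ± 3.77 and 19.7 ± 1.45 FPKM (log2 difference 0.68, limma, adjusted p = 0.000321). The other 2 E2F genes of the list went the opposite way. E2F2 was at 3.74 ± 0.145 in siPHF20L1 and 5.32 ± 0.289 FPKM in siControl libraries (log2 difference -0.41, limma, adjusted p = 0.00119). E2F3 was at 15.1 ± 0.559 and 20.1 ± 1.71 FPKM (log2 difference -0.39, limma, adjusted p = 0.00188). In bulk libraries fewer cells in a phase and less RNA per cell cannot be told apart, and the part of cell cycle phase in the replication genes was not tested.

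The 6-letter words CAAGAT and TAAGGA, which earlier work on these libraries picked because transcripts holding them in the 3′ UTR tended to be lower, were counted in the longest annotated 3′ UTR of each gene (GENCODE release 29). Of the lower replication genes, 10 of 17 held at least 1 (58.8%). Of the higher ones it was 7 of 14, and of those that did not pass 7 of 17 (41.2%). Over all genes tested the shares were 62.4% of lower, 50.9% of higher and 52.6% of genes that did not pass. Because the words were picked for this in the same libraries, the excess among the lower of all genes was set by that choice. It is given as a level only. DBF4, ORC2, RFC1 and GINS1 carry such a word, while LIG1, RFC3 and CLSPN, which fell as well, carry none. GINS4, which rose, carries both. The shares are not corrected for length, since the median 3′ UTR was 1415 bases in the lower and 1336 in the higher genes and 826 in the others, and the part of these words in the differences was not tested.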

How the data were processed

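Poly-A RNA of 3 siPHF20L1 and 3 siControl libraries was sequenced from a stranded kit, per the labels' protocols. The build GRCh37 and the tools HTSeq 0.6.0, TopHat2 2.1.1 and Bowtie 0.12.2 are named in the submitters' processing notes, which give no role or order. The deposited values are FPKM per the file headers, 1 per Entrez gene; how the authors computed them, and whether strand was used, is not given in the sources used here. Depth was read from the steps of low FPKM in genes with 1 RefSeq transcript shorter than 2500 bases. It assumes whole fragments and limits precision through counting error only.

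limma 3.58.1 (R 4.3.3) was fitted to log2(FPKM + 1) over 11560 genes with an intensity trend and no block, two-sided, with Benjamini-Hochberg adjustment over all of them and a threshold of 0.05. A log2 difference on this scale understates low genes. Same-numbered libraries deviated together (correlation 0.73, 0.44 and 0.42 for numbers 1, 2 and 3), so the replicate block was also fitted. Number 1 stands apart in both groups, which by itself gives positive values for the others, and siControl 3 with siPHF20L1 2 gave 0.49.

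Members and gene lists were chosen with earlier results of these data known. Named genes were all 48 members, per library where past the threshold with a log2 difference of at least 0.5, and the 3 largest called differences of each other list. DBF4B, E2F2, E2F3 and the further genes named among the other replication genes were chosen after their values were seen. ESR1 was named as a defining marker and RPL9 for its overlapping pseudogene. All 48 symbols matched RefSeq by Entrez identifier, and no list was tested as a set. Exon overlaps of at least 50 bases and 3′ UTRs come from GENCODE release 29 (another build, names and sequence only): 18 of the 48 share exonic bases with another gene. Besides those given above, MCM2 shares 1113 with the antisense gene AC023593.1 and CLSPN 280 with the antisense gene AL354864.1. The rest are MCM7, PRIM1, POLD1, POLD3, RFC5, RPA1 and RPA3. Alternatives were the pseudocount (0.1), the filter (none, or FPKM 5), 3 scalings, no trend, the block, numbers 2 and 3 only, and each library left out.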

Additional observations from a re-analysis of the deposited data

How the results depend on the processing

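Of the 720 values of single replication genes under an alternative, 602 kept their direction and side of the threshold, 72 lost the call, 38 gained it and 8 changed sign, all 8 in genes that did not pass. MCM6 (-0.0035) was at 0.01 with equal FPKM sums and at 0.02 in the libraries numbered 2 and 3. With 1 library left out, log2 differences ran from -0.03 to 0.03 for MCM6, -0.1 to 0.0032 for MCM7, -0.05 to 0.0042 for ORC3, -0.1 to 0.03 for POLA1 and -0.15 to 0.0045 for WDHD1. With quantile normalization 8 members were higher and the median log2 difference was -0.07, and with median-ratio size factors 7 and -0.09, where the median of all genes moved by under 0.1 from 0.05. With 1 library left out, 7 to 14 members were higher, 12 to 19 lower and 19 to 32 either, the lowest of each without siPHF20L1 replicate 3, and the median was -0.03 to 0.01. Of the other replication genes 7 to 10 were then higher and 8 to 16 lower, and of all genes 3411 to 3973 and 2324 to 2988. With the replicate block 21 members were higher and 21 lower, none of the 31 calls was lost, and 16 of the other replication genes were higher and 23 lower. In the libraries numbered 2 and 3 alone 19 members were higher and 21 lower. Of the other replication genes 14 were then higher and 19 lower. Calls also rose over all genes tested, from 3926 higher and 2851 lower as reported to 4946 and 3846 with the block. In the libraries numbered 2 and 3 alone, 4651 of all genes were higher and 3585 lower. The share called rose with the block from 64.6% to 87.5% of the 48 members and from 58.6% to 76.1% of all genes tested. The other replication genes went from 8 higher and 13 lower of 47 to 16 and 23. The sizes of these rises were not tested against each other. The causes were not tested.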
